A study of Tetranychus urticae with 12 samples.

Results

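A stretch of neighbouring genes on scaffold 6 of the spider mite Tetranychus urticae is described here across 3 strains. The genes are the IDs that begin with tetur06g and carry a number from 00900 to 01400, whatever their counts. They are 46 of the 19114 gene IDs in the deposited table of read counts, and the rest of scaffold 6 holds 610 IDs. The range was chosen by measured values, since a gene inside it, tetur06g01300, had reads in the strains Trizina and BC2018-14 and none in the London strain. Low levels in London are therefore a description of how the range was found, and no test is read from them. Trizina was not set against BC2018-14 in that choice, so that comparison is tested.

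Whole-body RNA of untreated mites was sequenced as stranded, paired-end mRNA libraries, and all strains were reared on potted kidney bean away from insecticides, per the labels. The submitters call Trizina multi-resistant and the other strains, London and BC2018-14, susceptible. No sex, age or stage of the mites is given in the sources used here. Each strain has 4 labelled libraries, and counts over all genes could be used for all of them except London library 5. The Trizina totals were 26454588 to 30799433 counts, those of BC2018-14 26090006 to 26851943 and those of the 3 London libraries 29262202 to 39875401. Levels are given as CPM, the count scaled to a fixed total per library. They are not corrected for gene length, so a level is compared between strains, and a higher CPM of a gene than of another gene does not show more transcripts of it.

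Spider mites feed on the contents of plant cells and are known for living on many host plants and for evolving resistance to pesticides. The London strain is the source of the T. urticae genome sequence to whose annotation tetur IDs belong. In that naming, the digits before g give the scaffold, and the number after it follows the order of the genes along the scaffold. A count near 0 says that few or no reads of a gene were assigned in a strain. RNA alone does not show whether such a gene is missing from the genome, altered in sequence or present and silent, and this was not tested. The files pair no gene names with IDs, and 0 of the 46 IDs matched the RefSeq table used here, so no function is given for any gene. No coordinates or sequences are given for the same reason.

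In ID order, London had reads at both ends of the stretch and almost none in its interior. The 14 IDs from tetur06g00900 to tetur06g01040 all had more than 3 counts in some London library, and so had the next 2, tetur06g01060 and tetur06g01080, at lower levels than in the other strains. From tetur06g01090 to tetur06g01280, 18 IDs in a row had at most 3 counts in every London library, with 6 London reads over all of them. The next ID, tetur06g01290, had London reads. Then tetur06g01300 and tetur06g01310 had 0, and from tetur06g01320 on London reads returned, at all of the 9 IDs except tetur06g01360, which had at most 3 counts in each London library. These bounds were drawn after the values had been seen.

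**Figure D1:**
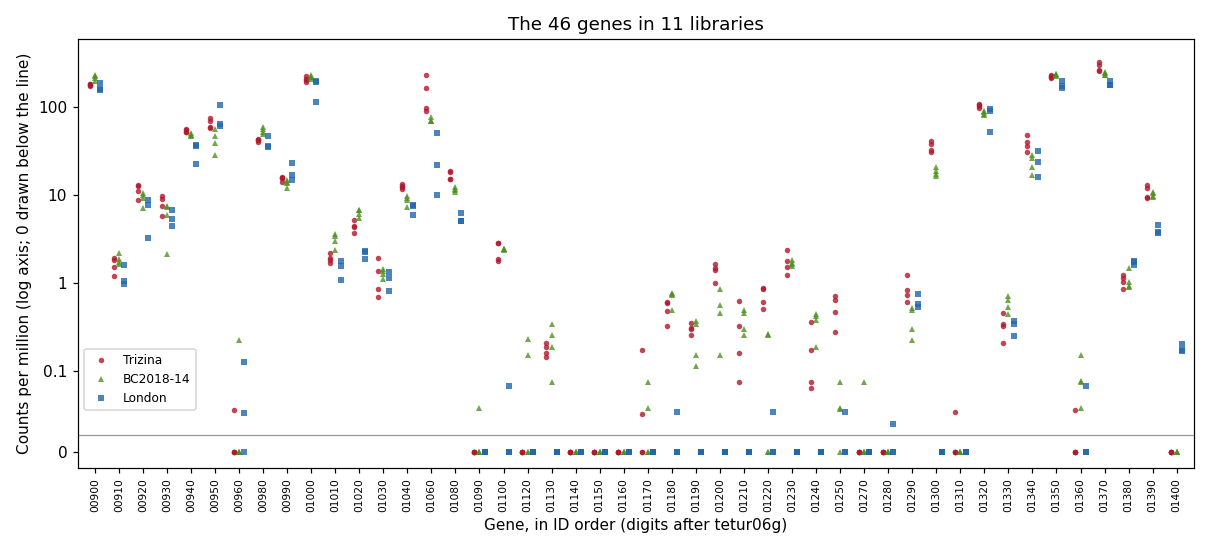
The 46 genes in ID order (horizontal axis) with their level in CPM in each of the 11 libraries (vertical log axis, values of 0 drawn below the grey line). Points of London lie at or near 0 from tetur06g01090 to tetur06g01280 and at tetur06g01300, where Trizina and BC2018-14 have reads at most positions. Toward both ends London has reads again, and at the last ID, tetur06g01400, only London has any.

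A gene was called silent in London at no more than 3 counts in every London library. It was called low where the highest London library was below 1 part in 4 of the lowest other library. Read in both others meant at least 1 CPM in every Trizina and every BC2018-14 library. By these definitions 3 of the 46 genes were silent or low in London and read in both others, namely tetur06g01100, tetur06g01230 and tetur06g01300. All 3 were silent. The same definition held for 0.806% of all IDs and for 7 of the 610 IDs on the rest of scaffold 6. Because London levels chose the range, nothing is read from the difference between these shares.

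Of these 3 genes, the most reads behind the values were those of tetur06g01300. Its CPM in Trizina was 32.7, 38.7, 41.7 and 31.3 in libraries 4, 5, 6 and 7, and in BC2018-14 it was 18.7, 16.8, 17.4 and 20.8 in libraries a, b, c and e. Not a single read was assigned to it in London libraries 2, 3 and 4. No BC2018-14 library reached the lowest Trizina library, and London stood apart from both. A count of 0 allows up to 3 reads, which is 0.0752 to 0.103 CPM in the London libraries, counting error only. Against the mean of that limit, 0.0931 CPM, Trizina was at least 388-fold higher and BC2018-14 at least 198-fold higher than London.

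At the left edge of the interior, tetur06g01100 had 2.86, 1.91, 2.85 and 1.78 CPM in the 4 Trizina libraries. In BC2018-14 it had 2.45, 2.45, 2.45 and 2.38 CPM, and in London 0.0683, 0 and 0 CPM. The London value is 2 reads in library 2. Trizina and BC2018-14 overlapped, and London lay below both. With so few London reads the ratio of pooled counts was 117 for Trizina, with a 95% interval for counting error, from an exact test, of 32 to 967. For BC2018-14 it was 120, with an interval of 32.9 to 997.

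In the middle of the interior, tetur06g01230 had 1.53, 1.80, 1.24 and 2.38 CPM in Trizina. It had 1.84, 1.58, 1.70 and 1.64 CPM in BC2018-14 and 0 in London libraries 2, 3 and 4. The 2 strains with reads overlapped here too. Against the mean London limit of 0.0931 CPM, Trizina was at least 18.7-fold and BC2018-14 at least 18.1-fold higher than London.

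Other IDs of the interior had few reads in any strain. The 19 IDs from tetur06g01100 to tetur06g01300 span the London-low block, whose first and last gene are silent in London and read in both others. No gene read in both others lay inside it at a London level that was neither silent nor low. Of these 19 IDs, 18 were silent in London, 13 had 0 London counts, and 5 had at most 3 counts in every library of any strain. The 3 IDs tetur06g01140, tetur06g01150 and tetur06g01160 had 0 counts throughout. So 13 of the 18 silent IDs had more than 3 counts in some library of another strain, although only 3 reached 1 CPM in all of them.

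Summed over the 18 silent IDs, the London libraries 2, 3 and 4 had 5, 0 and 1 reads. The Trizina libraries had 1271, 1344, 1360 and 1051 reads, and those of BC2018-14 680, 636, 613 and 749. Most of these reads were of tetur06g01300. Without it, sums were 219 to 264 reads in Trizina, 152 to 191 in BC2018-14 and the same 0 to 5 in London. The London library with the 5 reads was library 2, which had 2 of tetur06g01100 and 1 each of tetur06g01180, tetur06g01220 and tetur06g01250.

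The gene tetur06g01180 shows what a weakly read member looked like. It had 0.487, 0.590, 0.329 and 0.605 CPM in Trizina, 0.728, 0.754, 0.490 and 0.782 in BC2018-14, and 0.0342, 0 and 0 in London. Trizina and BC2018-14 overlapped, and the London value is 1 read. The ratio of pooled counts to London was 49.6 for Trizina, with a 95% exact interval from 8.55 to 1990, so its size is poorly fixed.

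Counting any read as expression widened the list. With at least 1 count in every Trizina and BC2018-14 library in place of 1 CPM, a definition added after the values had been seen, 9 members were silent or low in London and read in both others. They were the 3 above and tetur06g01130, tetur06g01180, tetur06g01190, tetur06g01200, tetur06g01210 and tetur06g01240. Over all 19114 IDs this wider definition held for 385, where the first one held for 154. London levels chose the range, so nothing is read from the count of members. The longest unbroken stretch then ended at tetur06g01240, because tetur06g01290 counted as read and was neither silent nor low in London.

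The exception inside the block was tetur06g01290. It had 0.617, 0.728, 0.840 and 1.25 CPM in Trizina, 0.498, 0.226, 0.527 and 0.298 in BC2018-14, and 0.752, 0.541 and 0.577 in London. London library 2 lay within the range of Trizina, libraries 3 and 4 lay below every Trizina library, and all 3 lay above every BC2018-14 library. The London reads were 22, 16 and 23. It is the neighbour of tetur06g01300, which had none.

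On the left side of the interior, the last 2 read genes were lower in London than in the other strains but clearly read there. Levels of tetur06g01060 were 166, 91.4, 98.7 and 232 CPM in Trizina, 69.7, 76.9, 69.5 and 69.6 in BC2018-14, and 51.2, 21.9 and 10.1 in London. The strains did not overlap, but Trizina and London varied widely, with 147.0 ± 65.8 CPM (SD, n = 4) and 27.7 ± 21.2 CPM (SD, n = 3). The ratio of means to London was 5.3 for Trizina and 2.57 for BC2018-14.

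Its neighbour tetur06g01080 varied less. It had 19.1, 15.3, 15.3 and 18.4 CPM in Trizina, 12.5, 10.8, 11.9 and 11.6 in BC2018-14, and 6.22, 5.04 and 5.07 in London. Again no strain overlapped another, with Trizina highest and London lowest. The ratio of means to London was 3.12 for Trizina and 2.15 for BC2018-14.

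On the right side, tetur06g01320 had 97.2 to 108 CPM in Trizina, 81.6 to 90.5 in BC2018-14, and 52.5, 95.6 and 90.8 in London. London library 2 was below all others, and libraries 3 and 4 lay above BC2018-14 and below Trizina. The next ID, tetur06g01330, had 0.208 to 0.455 CPM in Trizina, 0.452 to 0.708 in BC2018-14 and 0.251 to 0.372 in London, so London overlapped Trizina. So the first members beyond tetur06g01310 had London reads at levels near or within those of the other strains.

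**Figure D2:**
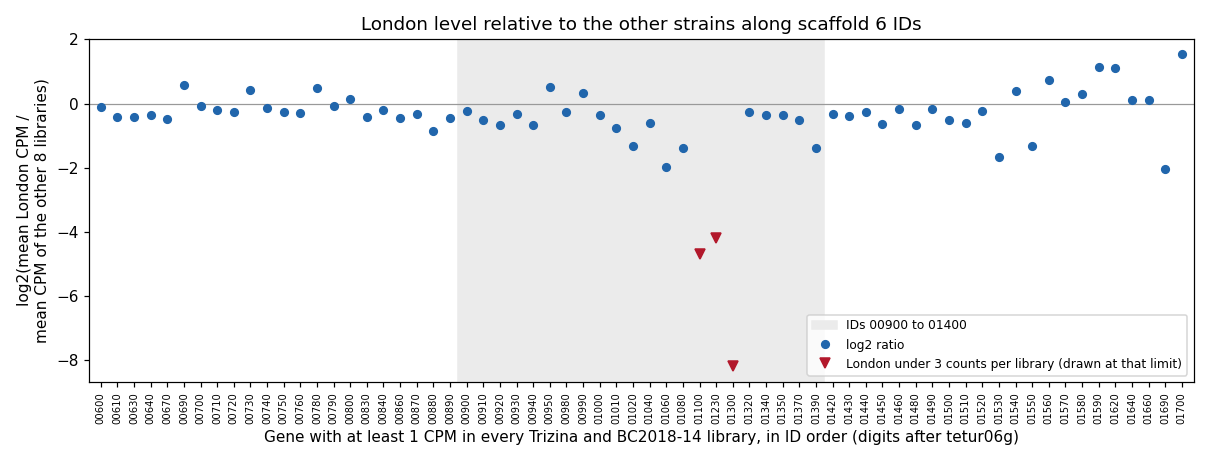
Genes with at least 1 CPM in every Trizina and BC2018-14 library, in ID order across the range and its surroundings (horizontal axis), with the log2 ratio of the mean London CPM to the mean CPM of the other 8 libraries (vertical axis). Inside the shaded range, 3 genes had at most 3 counts in each London library. They are drawn at the level of 3 counts, at -4.68, -4.20 and -8.19. In the same range tetur06g01060 and tetur06g01080 lie at -1.98 and -1.40, and tetur06g01390 at -1.395. Genes outside the range run from -2.05 (tetur06g01690) to 1.53 (tetur06g01700). CPM are on column totals. With that scaling the median log2 fold change over London of all tested genes was 0.17 for Trizina and 0.25 for BC2018-14 (edgeR).

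Of the 22 members read in both others, 19 were neither silent nor low in London. Their log2 ratio of mean London CPM to the mean of the other libraries ran from -1.98 to 0.52. The first ID, tetur06g00900, had 178, 182, 176 and 182 CPM in Trizina, 200 to 232 in BC2018-14 and 186, 162 and 156 in London. London overlapped Trizina and lay below BC2018-14.

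Further along, tetur06g01020 and tetur06g01390 also lay below the other strains in London, at log2 ratios of -1.32 and -1.40. For tetur06g01390 London had 3.83, 4.53 and 3.76 CPM, against 9.42 to 13.2 in Trizina and 9.43 to 10.8 in BC2018-14. London was lower without overlap, and the other strains overlapped each other. Members with London reads lie between it and the block. The last ID, tetur06g01400, had the opposite distribution, with 5, 6 and 7 reads in London and 0 reads in each of the other 8 libraries.

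The genes next to the range were read in London as well. Those before it, tetur06g00880 and tetur06g00890, had 2.97 ± 0.358 and 5.27 ± 0.576 CPM in London (SD, n = 3), 4.23 ± 0.437 and 3.6 ± 0.471 in Trizina (SD, n = 4) and 6.51 ± 0.669 and 10.8 ± 1.55 in BC2018-14 (SD, n = 4). The next read genes after it, tetur06g01420 and tetur06g01430, had 131 ± 11 and 48.6 ± 3.36 CPM in London (SD, n = 3), 154 ± 2.64 and 47.2 ± 2.09 in Trizina and 174 ± 12.3 and 79.7 ± 9.91 in BC2018-14 (SD, n = 4). London had the lowest mean at tetur06g00880 and tetur06g01420 and the middle one at the other 2, and BC2018-14 had the highest at all 4. These are CPM on column totals. With library size alone as the scaling, all tested genes had a median log2 fold change over London of 0.17 for Trizina and 0.25 for BC2018-14 (edgeR). In the model described below, tetur06g01420 had log2 fold changes over London of 0.06 for Trizina and 0.16 for BC2018-14, neither called.

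The members with the most reads per library total, not corrected for length, were tetur06g01350 and tetur06g01370. London had 181 ± 17.4 and 185 ± 11.4 CPM of them (SD, n = 3), Trizina 225 ± 6.51 and 286 ± 32.5 and BC2018-14 237 ± 5.62 and 242 ± 9.97 (SD, n = 4). In CPM on column totals, London was below every other library for both. In the model fitted over all genes, described below, neither gene was called between London and another strain. Every change was below the minimum fold change that a call needs, whatever its p-value. Log2 fold changes over London of tetur06g01350 and tetur06g01370 were 0.15 and 0.46 for Trizina, and 0.14 for each gene in BC2018-14 (edgeR). One member lay above the other strains in London without overlap and with at least 1 CPM there, tetur06g01380, at 1.78, 1.59 and 1.73 CPM. Trizina had 0.869 to 1.25 CPM and BC2018-14 0.904 to 1.51. Such a pattern held for 6.3% of all IDs.

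**Figure D3:**
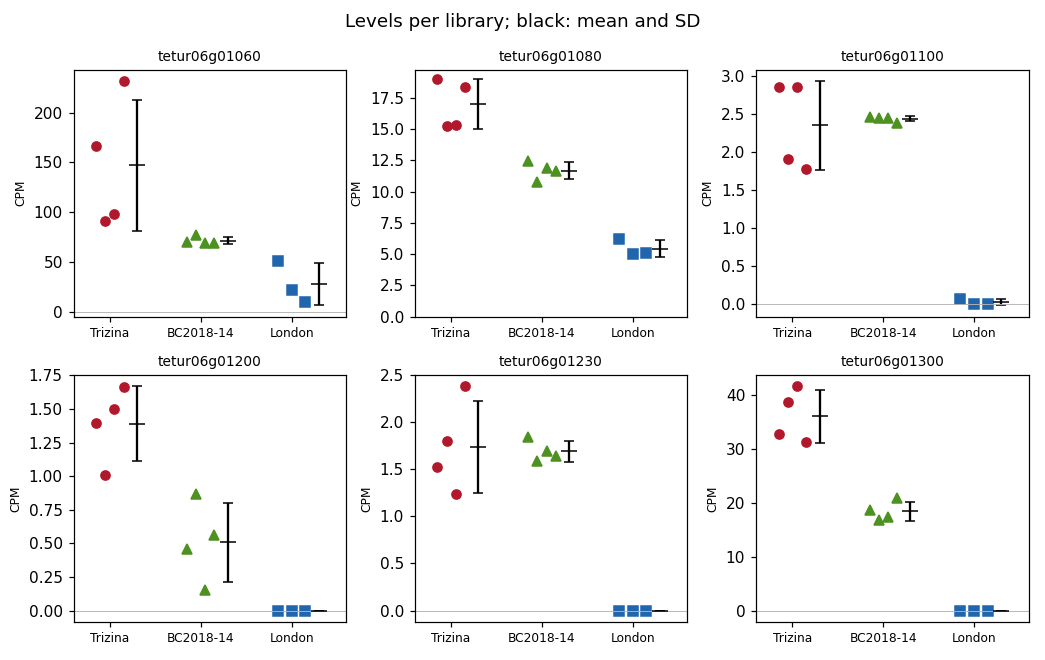
Levels in CPM (vertical axes, linear) of 6 genes in each library of the 3 strains (horizontal axes), with the mean and SD in black. The genes tetur06g01060 and tetur06g01080 are read in London at lower levels, while tetur06g01100, tetur06g01200, tetur06g01230 and tetur06g01300 are at or near 0 there. For tetur06g01300, Trizina is above BC2018-14 in every library.

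Counts over the whole range place these members among all genes. At most 3 counts in every London library were found for 21 of 46 members (45.7%), against 19.7% of all IDs and 119 of the 610 IDs on the rest of scaffold 6. At most 3 counts in every library of all strains were found for 7 members (15.2%), against 14.9% of all IDs. Every London library lay below every other library for 16 members, against 17.7% of all IDs. The counts that set London apart use the levels that chose the range, and nothing is read from them.

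Runs of silent IDs can be compared as a description. Among IDs numbered below 90000, London had 3 runs of at least 18 neighbouring IDs silent in every library. Of these, 1, the run from tetur06g01090 to tetur06g01280, held 12 or more IDs with over 3 counts in some library of another strain. By the same counting Trizina had 0 runs of that length, its longest being 16 IDs, and BC2018-14 had 2, neither with as many IDs read elsewhere. The limits of 18 and 12 were the length of the London run described here and its own number of such IDs. That this run met them was fixed in advance, so nothing is read from the comparison. Within the range, the longest silent run was 3 IDs in Trizina and 4 in BC2018-14. Stretches of genes silent or low in London and read in both others numbered 118 over all scaffolds, and 105 of them were single genes. The stretch here, with 3 such genes, was equalled or exceeded by 6 others, the longest with 14 genes on scaffold 11. IDs numbered from 90000 on stand last in this order whatever their place, and scaffold 6 has 75 of them.

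A model fitted over all genes gave the sizes of strain differences. The test was edgeR's quasi-likelihood test, and calls needed a Benjamini-Hochberg adjusted p below 0.05 and a log2 fold change of 1 or more in either direction. A filter on low counts left 32 of the 46 members, and the other 14 were not tested. Against London, which chose the range, 12 members were called higher in Trizina and 9 higher in BC2018-14. The background was 7.62% of all tested genes higher in Trizina and 7.68% higher in BC2018-14. In the lower direction, 0 members were called in Trizina and 1, tetur06g00950, in BC2018-14, against 9.96% and 14% of all tested genes. At unadjusted p below 0.05 and with no minimum fold change, edgeR had 2 members lower in Trizina than in London. Under the full rule for a call, DESeq2 gave 0 lower, as edgeR did. Nothing is read from these counts.

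The fourth London library, library 5, has counts only for genes that the authors listed as differing from Trizina. The authors' deposited table of Trizina and London lists 6 of the 46 members, tetur06g01060, tetur06g01080, tetur06g01100, tetur06g01200, tetur06g01230 and tetur06g01300. London library 5 had 0 counts of tetur06g01100, tetur06g01200 and tetur06g01300, and 1 count of tetur06g01230, in the authors' deposited table. The same table gives 500 counts of tetur06g01060 and 139 of tetur06g01080 in that library. So these genes divided in library 5 as in the other London libraries, at or near 0 inside the block and read at its left side. Members were listed there because all 4 London libraries together differed from Trizina, so this library is not an independent check. In the authors' deposited table the log2 fold changes of Trizina over London were 2.38 and 1.52 for tetur06g01060 and tetur06g01080, 6.74 for tetur06g01100, 8.30 for tetur06g01200, 7.04 for tetur06g01230 and 13.0 for tetur06g01300.

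Trizina and BC2018-14, both of which had reads in the block, were compared next. This difference did not choose the range. Of the 32 tested members, 5 were called higher in Trizina and 0 lower, against 9.91% and 5.18% of all tested genes. Among the 5, tetur06g01220 and tetur06g01250 passed the filter on low counts through Trizina libraries alone, so their direction was fixed by being tested. Of the other 30 tested members, 3 were called higher. Without Trizina library 6 or 7 the higher calls were 3. The share of higher calls was 15.6% of tested members with tetur06g01220 and tetur06g01250 included. It came from so few genes that it is not read as different from the background. The edgeR test had 5 members lower in Trizina at an unadjusted p below 0.05, each by less than the minimum fold change. The share of all genes at that limit is not given, so nothing is read from that count. DESeq2 also called 5 higher and 0 lower. The median log2 fold change was 0.22 over the 32 members and 0.01 over all 14394 genes.

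The 5 genes higher in Trizina were tetur06g01200, tetur06g01220, tetur06g01250, tetur06g01290 and tetur06g01300, which all lie within the block. None of the 22 tested members before tetur06g01090 or after tetur06g01310 was called. Leaving aside tetur06g01220 and tetur06g01250, 3 of 8 tested members between these IDs were called, and nothing is read from where the calls lie. The difference was clearest for tetur06g01300, whose levels are given above and which stood at 36.1 ± 4.90 CPM in Trizina and 18.4 ± 1.80 CPM in BC2018-14 (SD, n = 4). Its log2 fold change was 1.05 ± 0.123 (SE), or 2.07-fold, with an adjusted p of 0.000137 by edgeR's quasi-likelihood test. All 4 Trizina libraries were above all BC2018-14 libraries. The change is close to the minimum for a call, and with library size alone as the scaling it was 0.97 and without Trizina library 6 also 0.97, so that it was no longer called.

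The other 4 rested on few reads. For tetur06g01200 Trizina had 1.40, 1.01, 1.5 and 1.66 CPM and BC2018-14 0.460, 0.867, 0.151 and 0.559 CPM. Trizina was above BC2018-14 in every library, by a log2 fold change of 1.52 ± 0.421 (SE) and an adjusted p of 0.0178 in the edgeR test. It was the only member in the authors' deposited table of Trizina and BC2018-14, where its log2 fold change is 1.53.

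For tetur06g01220 Trizina had 27, 25, 14 and 16 reads, or 0.511 to 0.877 CPM. BC2018-14 libraries b and e had 7 reads each, and libraries a and c had 0. BC2018-14 libraries a and c thus differ from b and e here. The groups did not overlap, and the log2 fold change was 2.48 ± 0.701 (SE), with an adjusted p of 0.0154 in the edgeR test. Because tetur06g01220 passed the filter through Trizina libraries alone, that p-value is not read as a test of the direction.

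The largest fitted change belonged to tetur06g01250, with 20, 8, 13 and 19 reads in Trizina and 1, 2, 0 and 1 in BC2018-14. Its log2 fold change was 3.73 ± 0.632 (SE), with an adjusted p of 0.000767 in the edgeR test. Here too the filter was passed through Trizina libraries alone, so that p-value is not read as a test of the direction. Without Trizina library 4, 6 or 7, or with BC2018-14 and Trizina fitted alone, tetur06g01250 no longer passed the filter and was not tested.

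The fifth was tetur06g01290, the member also read in London. Its levels, given above, did not overlap between Trizina and BC2018-14, and its log2 fold change was 1.21 ± 0.342 (SE), with an adjusted p of 0.0156 in the edgeR test. Without Trizina library 7 its log2 fold change was 0.99 and it was not called. London was not called different from either strain here. The log2 fold change of Trizina over London was 0.28 ± 0.347 (SE), and that of BC2018-14 over London was -0.93 ± 0.369 (SE), with an adjusted p of 0.0581 in the edgeR test. Without BC2018-14 library c the gene was called lower in BC2018-14 than in London.

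**Figure D4:**
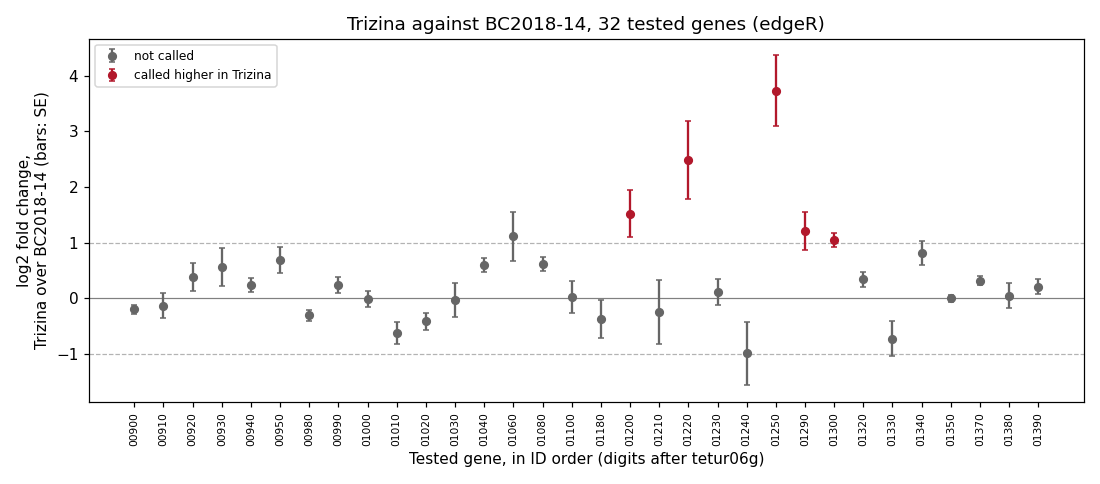
Log2 fold change of Trizina over BC2018-14 (vertical axis, bars give the SE) for the 32 tested genes in ID order (horizontal axis); dashed lines mark the minimum change for a call. The 5 called genes, in red, lie between tetur06g01200 and tetur06g01300 at 1.05 to 3.73, and the genes before tetur06g01060 and after tetur06g01300 lie between -0.72 and 0.81. Among the called genes, tetur06g01220 and tetur06g01250 passed the filter on low counts through Trizina libraries alone, so their direction was fixed by being tested.

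Other members of the block did not pass the test between these strains, and their fitted changes lay on both sides of 0. For tetur06g01100 the log2 fold change of Trizina over BC2018-14 was 0.03, with an approximate 95% interval, from the SE of the fit, of -0.53 to 0.58. For tetur06g01230 it was 0.12, with an interval of -0.35 to 0.58. These intervals leave room for differences of a size below the minimum for a call. For tetur06g01240, with 2 to 10 reads in Trizina and 5 to 12 in BC2018-14, it was -0.99 ± 0.568 (SE), with an adjusted p of 0.196 in the edgeR test.

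The genes at the left edge were not called between these strains. For tetur06g01060 the log2 fold change was 1.11 ± 0.440 (SE), with an adjusted p of 0.0676 in the edgeR test. It was called, at adjusted p of 0.0212, 0.0280 and 0.0252, when only Trizina and BC2018-14 were fitted, and without London library 2 or 4 (edgeR). The change of tetur06g01080, 0.62 ± 0.120 (SE), had an adjusted p of 0.00188 in the edgeR test but was below the minimum fold change. With adjusted p alone and no minimum, 10 members were higher and 3 lower in Trizina (edgeR). The share of all tested genes under that rule is not given here, so nothing is read from these counts.

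Of the members beyond the right edge, tetur06g01320 had a log2 fold change of Trizina over BC2018-14 of 0.34 ± 0.140 (SE) and tetur06g01330 one of -0.72 ± 0.309 (SE), neither called. The genes with the highest level, tetur06g01350 and tetur06g01370, stood at 0.00 and 0.32, and tetur06g01380 at 0.05. The 13 tested members from tetur06g00900 to tetur06g01040 ran from -0.62 to 0.69, and the 7 from tetur06g01320 on from -0.72 to 0.81.

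Spread between libraries of a strain was somewhat larger among these members than among all genes. The median SD of log2 CPM over the 32 tested members was 0.250 in Trizina, 0.179 in BC2018-14 and 0.292 in London, and over all tested genes 0.151, 0.139 and 0.255. This SD depends on the level of a gene, and the members were not matched to other genes on level. Nothing is therefore read from the difference. The member with the largest SD was tetur06g01210 in Trizina, with 5, 18, 9 and 2 reads. In BC2018-14 it was tetur06g01220, and in London tetur06g01060.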

How the data were processed

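The authors deposited raw counts of reads for each gene. Their 2 deposited comparison tables list genes differing between Trizina and each susceptible strain, with counts, log2 fold changes, p-values and false discovery rates, per the file headers. HISAT2 2.1.0, SAMtools 1.10, featureCounts 1.6.0 and edgeR are named in the submitters' processing notes. The edgeR version, strand setting, annotation and genome build are not given in the sources used here, so overlapping, antisense or near-identical genes are uncertain. The count table's header names 12 libraries but each line holds 11 values. Columns were identified because they equal the named columns of the comparison tables at 1458 of 1458 and 967 of 967 listed genes. No column held London library 5, so the fit had 11 libraries where 12 had been planned.

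The quasi-likelihood test of edgeR 4.0.16 (R 4.3.3) was run on the deposited counts of 14394 genes kept by filterByExpr, with TMM factors, robust dispersion and strain as the only term. DESeq2 1.42.0, library size alone, other filters, fits of 2 strains and leaving out each library were alternatives. CPM used column totals. Limits, and intervals of ratios of pooled counts, cover counting error only. Intervals of log2 fold changes were taken from the SE of the edgeR fit, which includes spread between libraries. They use a normal approximation and may be too narrow. Steps were tested on simulated data. Libraries of a strain differed beyond sampling noise, chi-square divided by its degrees of freedom being 6.75 to 150. Whether they are separate cultures is not labelled, so p-values reflect only how far these libraries differ, possibly for technical reasons.

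The members and definitions were chosen with earlier results of these data known. Named genes were those silent or low in London and read in both others, those called between Trizina and BC2018-14, those above both strains in London, the 2 tested members on either side of each end of the block, the 2 with the highest mean CPM, and the 2 read genes next to the range on each side. Others were named after their values had been seen.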

Additional observations from a re-analysis of the deposited data

Results flagged for a closer look

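Among the named members, the 4 libraries of a strain were examined in 30 cases for 1 value lying apart, and 2 were found, where chance gives about 1 in 20. For tetur06g01060 in BC2018-14, library b had 76.9 CPM and the others 69.5 to 69.7, so that the gap was 0.971 of the whole range. For tetur06g01100 in BC2018-14, library e had 2.38 CPM and the others 2.45, a gap of 0.937 of the range. Its reads in libraries a, b, c and e were 64, 65, 65 and 64. Library e thus had the same count as library a and differed from it only in library total, so nothing is read from this gap. In both groups the other 3 libraries were nearly equal.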

How the results depend on the processing

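The block from ID number 1100 to 1300 and its 3 genes were the same with every library left out in turn, and with other limits for silent or low, except that low at 1 part in 2 added tetur06g01390 outside the block. Reading at 5 CPM left 1 gene, tetur06g01300, so that the block began at 1300, and reading at 1 count in every library gave 9 genes and an end at 1240. Calls between Trizina and BC2018-14 were 5 higher and 0 lower. With a filter of 5 CPM in 3 libraries there was 1 higher, and with adjusted p alone 10 higher and 3 lower. Leaving out a library gave 3 to 6 higher, with 3 without Trizina library 6 or 7, and 0 to 0 lower. Against London, Trizina had 12 higher and 0 lower. The 5 CPM filter gave 4 higher, no filter 1 lower and adjusted p alone 2 lower, and leaving out a library 11 to 12 higher. BC2018-14 over London had 9 higher and 1 lower. The 5 CPM filter gave 3 higher, library size alone 0 lower, no filter 2 lower and adjusted p alone 3 lower. Leaving out a library gave 8 to 10 higher and 0 to 3 lower, with 0 without London library 2 or BC2018-14 library e and 3 without BC2018-14 library c. The filters remove weakly read genes by construction, and the cause of the other changes was not tested. Shares of all genes called under these other settings are not given, so nothing is read from the numbers of calls.

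Library size alone moved the median log2 fold change of all genes by 0.170 for Trizina over London, by 0.247 for BC2018-14 over London and by -0.071 for Trizina over BC2018-14. It also turned the sign of 3 changes near 0 between Trizina and BC2018-14, to -0.0506 for tetur06g01100, -0.0736 for tetur06g01350 and -0.0303 for tetur06g01380, and no filter gave -0.0016 for tetur06g01350. Leaving out a library gave -0.0866 to 0.143 for tetur06g01100, -0.0625 to 0.245 for tetur06g01230, -0.0207 to 0.018 for tetur06g01350 and -0.0403 to 0.245 for tetur06g01380. No paired analysis was possible because London and Trizina share only the replicate number 4 among libraries with counts over all genes, and BC2018-14 is lettered.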
